A study of Homo sapiens with 3 samples.

Results

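The genes described here are 10 textbook inflammatory targets of the transcription factor NF-κB: the neutrophil chemokines CXCL1, CXCL2, CXCL3 and CXCL8, the chemokine CCL20, the cytokines IL6, IL1A and IL1B, the feedback inhibitor TNFAIP3 and the adhesion molecule ICAM1. They were taken by gene symbol from a fixed list, which was chosen with earlier results of these data known. All 10 were found among the 19220 genes of the count table and passed the filter on low counts. RNA-seq libraries of 3 lines were compared: CAL27, a human oral squamous cell carcinoma (OSCC) line kept in drug-free medium, CAL27/5FU, its 5-fluorouracil resistant derivative kept in 10 μM 5FU, and CAL27/OXA, its oxaliplatin resistant derivative kept in 10 μM OXA. Each line is represented by 1 labelled library, so the differences between lines are given without replicates and without p-values. The libraries held 41786182, 37297713 and 43455488 counts, in that order. Where 3 values are listed below, they follow the same order of lines, and a pair of log2 ratios gives first CAL27/5FU and then CAL27/OXA, each against CAL27. CAL27/5FU cells were selected from the parental line by rising concentrations of the drug. Each resistant line was kept in its drug, so a lasting change in the cells and a direct response to the drug cannot be told apart. The comparisons address which genes differ between the parental and the resistant cells.

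NF-κB is a family of dimeric transcription factors held in the cytoplasm by IκB proteins. Signals from interleukin-1, TNF or Toll-like receptors activate the IκB kinase (IKK) complex, IκB is degraded, and the dimers bind κB sites in the DNA near cytokine, chemokine and adhesion genes. Some of these targets, such as TNFAIP3 (the ubiquitin-editing protein A20) and NFKBIA (IκBα), shut the signal off again. In squamous epithelia and carcinomas, the CXC chemokines attract neutrophils, IL1A acts as an alarm signal, and IL6 signals through STAT3.

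The promoters of the 4 CXC chemokine genes are shown first. CXCL1, CXCL2 and CXCL3 have a closely similar κB region, and their ratios in the resistant lines are given below. The part of the promoters in these ratios was not tested. The bases lie from 110 to 21 bases before the RefSeq start (GRCh38.p14, chromosome 4), and the capitals mark the κB-type letters.
CXCL1, plus strand, chr4:73869283-73869372: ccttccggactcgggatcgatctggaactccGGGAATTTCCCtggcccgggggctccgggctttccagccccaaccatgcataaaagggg
CXCL2, minus strand, chr4:74099216-74099305: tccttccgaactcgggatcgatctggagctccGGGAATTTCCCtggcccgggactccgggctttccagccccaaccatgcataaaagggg
CXCL3, minus strand, chr4:74038710-74038799: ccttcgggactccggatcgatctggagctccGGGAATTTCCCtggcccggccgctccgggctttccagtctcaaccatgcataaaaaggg
CXCL8, plus strand, chr4:73740459-73740548: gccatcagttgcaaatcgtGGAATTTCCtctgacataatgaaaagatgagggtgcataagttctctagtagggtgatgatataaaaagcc
The first 3 share an unbroken run of 23 bases, ctccGGGAATTTCCCtggcccgg. Over the 250 bases before the start, CXCL1 and CXCL3 were identical at 81.4% of aligned positions, CXCL2 and CXCL3 at 73.3% and CXCL1 and CXCL2 at 70.4%. CXCL8 was identical to CXCL1 at 42.6%.

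For 4 other genes, a stretch of 60 bases with the κB-type letters in capitals is given to show where these lie.
IL6, plus strand, chr7:22727100-22727159: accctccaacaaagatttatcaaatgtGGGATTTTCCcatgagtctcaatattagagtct
CCL20, plus strand, chr2:227813742-227813801: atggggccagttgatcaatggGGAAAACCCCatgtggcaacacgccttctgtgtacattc
TNFAIP3, plus strand, chr6:137867159-137867218: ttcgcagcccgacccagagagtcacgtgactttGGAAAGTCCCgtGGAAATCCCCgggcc
ICAM1, plus strand, chr19:10270910-10270969: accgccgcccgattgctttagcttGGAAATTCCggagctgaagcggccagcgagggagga
The windows of 250 bases before and 50 bases after each RefSeq start were searched on both strands. The κB motif, a degenerate consensus, was found in 6 of the 11 windows of the 10 genes (IL1A has 2 overlapping windows), and in 5.91% of all 35116 windows. These 6 genes were CXCL1, CXCL2, CXCL3, IL6, CCL20 and TNFAIP3, and TNFAIP3 held 2 matches. The shorter letters GGAATTTCC, which overlap the κB motif in CXCL1, CXCL2 and CXCL3, were found in 5 windows, those of the 4 CXC genes and of ICAM1, and in 0.461% of all windows. These letters were added after the promoters were seen, for the site known from CXCL8. The 10 genes were listed as known NF-κB targets, so the shares of both motifs are descriptive and no test. AP-1 letters, TGANTCA, lay in CXCL8 and in both windows of IL1A, against 7.71% of all windows. The TATAAA letters of a TATA box lay in CXCL8, CCL20, ICAM1 and 1 window of IL1A, against 11.5%. IL1B held none of these letters in its window. A match describes the sequence and shows no binding. Of the 8 stretches printed, 7 overlap the gene span of GENCODE 29, and that of CXCL1 does not.

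**Figure D1:**
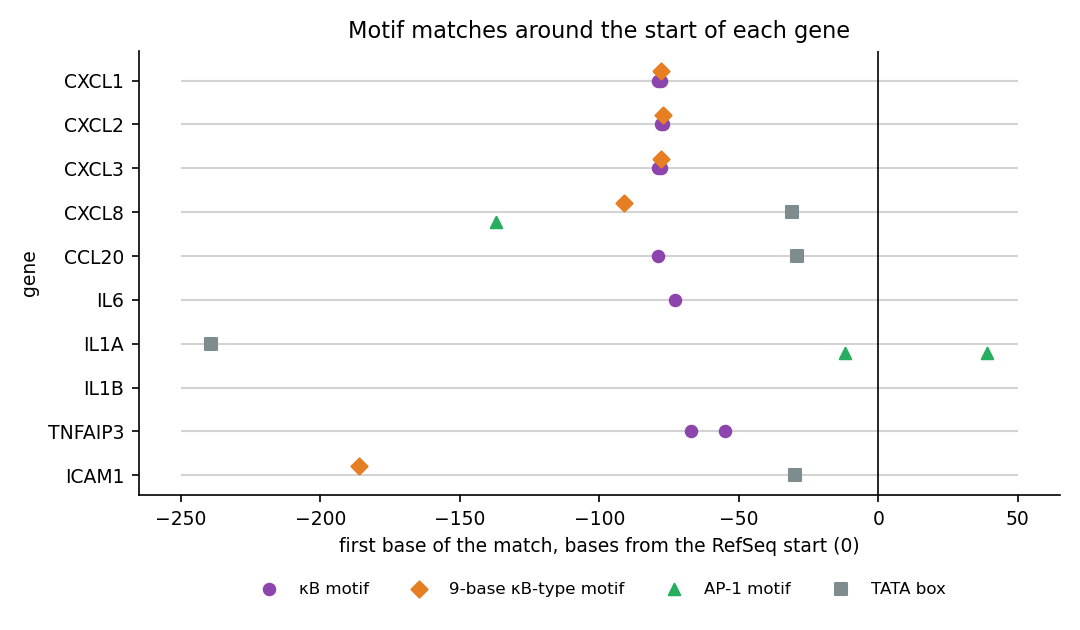
Position of motif matches (x axis, bases from the RefSeq start) in the window of each gene (y axis), with circles for the κB motif, diamonds for GGAATTTCC, triangles for AP-1 letters and squares for TATA boxes. For IL1A, the window of the earlier start is drawn. CXCL1, CXCL2 and CXCL3 carry their κB letters at -79, -78 and -79, and the IL1B window holds no match.

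Levels of different genes were compared in the deposited FPKM values, which are scaled to gene length. In CAL27, IL1B was the most abundant of the 10 genes (206 FPKM), followed by TNFAIP3 (140 FPKM), CXCL1 (134 FPKM), CXCL8 (107 FPKM), ICAM1 (102 FPKM), CCL20 (100.1 FPKM) and IL1A (62.5 FPKM). CXCL2 (15.6 FPKM), CXCL3 (5.08 FPKM) and IL6 (1.31 FPKM) were much lower. In this order, the exact 95% counting intervals of neighbours overlapped only for ICAM1 (100.3 to 104 FPKM) and CCL20 (96.8 to 103 FPKM), and the spread between replicates was not measured here. IL1B was also first in CAL27/5FU and in CAL27/OXA, and IL1A moved from the seventh place to the second in each. Together the 10 genes took 0.193% of all counts in the parental line (Wilson 95% interval 0.192% to 0.195%), 0.291% in CAL27/5FU (0.290% to 0.293%) and 0.281% in CAL27/OXA (0.280% to 0.283%). These intervals, like all others given here, cover counting error only. The gene with most counts among the 10 was TNFAIP3 in the parental line, IL1B in CAL27/5FU and IL1A in CAL27/OXA.

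**Figure D2:**
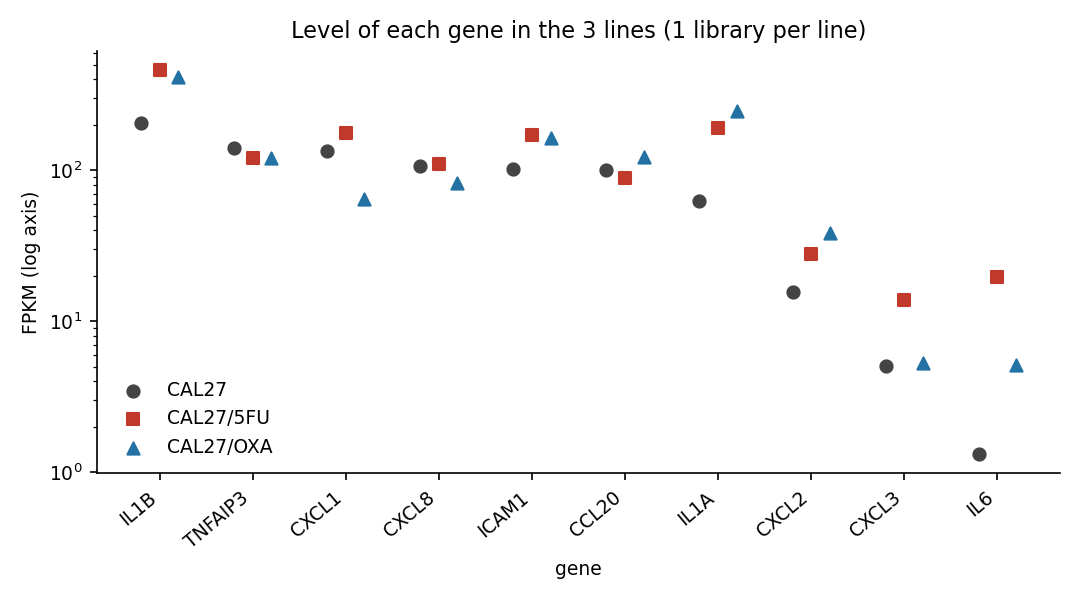
Level of each gene (x axis) in FPKM on a log axis (y axis), with 1 point per line. IL6 is the lowest gene in CAL27 at 1.31 FPKM and reaches 19.5 FPKM in CAL27/5FU, while TNFAIP3 stays between 120 and 140 FPKM in the 3 lines.

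For ratios between lines, counts were scaled with TMM factors, and a gene was called higher or lower past 2-fold. In CAL27/5FU against CAL27, 3 of the 10 genes were higher (IL6, IL1A and CXCL3) and 0 were lower. Under scaling by total counts or upper quartiles, and in FPKM, IL1B was also higher. Among all 13676 tested genes, 8.46% were higher and 6.72% lower. In CAL27/OXA against CAL27, 3 genes were higher (IL1A, IL6 and CXCL2) and 1 was lower (CXCL1), against 6.54% and 9.28% of all genes. In CAL27/OXA against CAL27/5FU, 0 were higher and 3 were lower (IL6, CXCL1 and CXCL3), against 4.18% and 8.38%. The median log2 ratio of the 10 genes was 0.63 in CAL27/5FU and 0.35 in CAL27/OXA, beside -0.0035 and 0.0055 for all tested genes, and the direct comparison gave -0.080 beside 0.0079. The comparisons with CAL27 share that library. Since the 10 genes were chosen with earlier results of these data known, their shares and medians are descriptive. Of the 10 genes, 2 (CXCL1 and CCL20) had opposite signs in the resistant lines with both counting intervals away from 0, against 11.8% of all tested genes. Scaling by total counts moved the median of all genes to 0.17 in CAL27/5FU and to 0.14 in CAL27/OXA, and the share of higher genes among all those past 2-fold in CAL27/5FU from 55.7% to 67.2% and in CAL27/OXA from 41.3% to 51.1%.

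**Figure D3:**
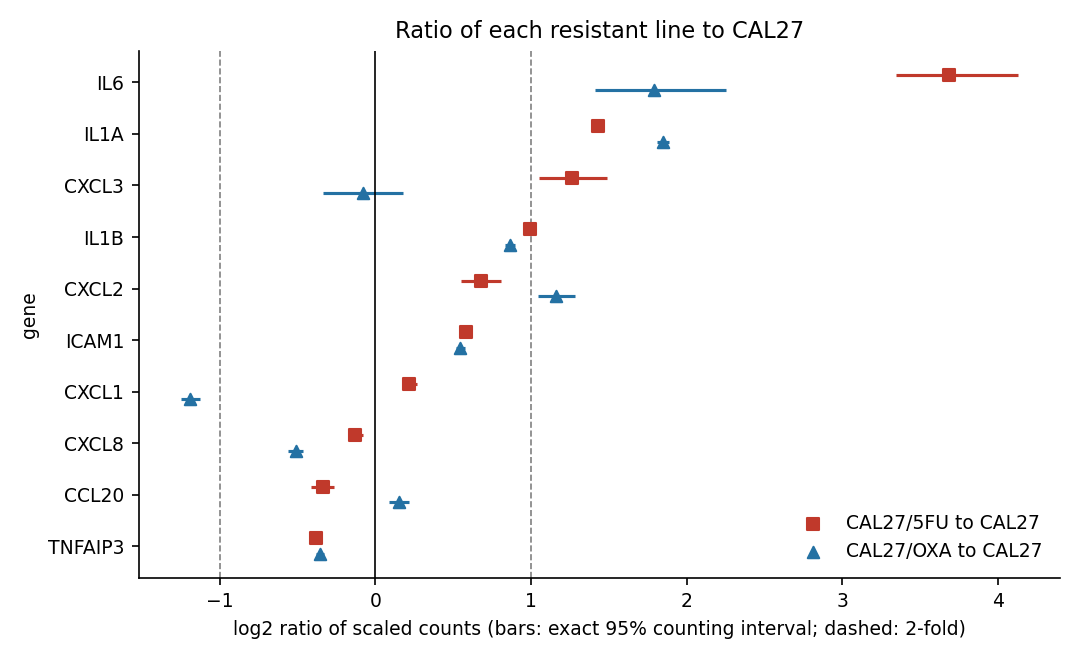
Log2 ratio of each resistant line to CAL27 (x axis) for each gene (y axis), with exact 95% counting intervals as bars and dashed lines at 2-fold. IL6 and IL1A lie past 2-fold in each resistant line, CXCL1 lies at 0.22 in CAL27/5FU and -1.19 in CAL27/OXA, and TNFAIP3 and ICAM1 have nearly the same ratio in the 2 lines.

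IL6, the cytokine that activates STAT3 through the receptor subunit gp130, had the largest rise of the 10 genes in CAL27/5FU. It had 60, 797 and 242 counts, which are 1.54, 20.4 and 5.45 library-scaled counts (CPM) after scaling. CAL27 was thus the lowest line and CAL27/5FU the highest. In bulk RNA, fewer cells making a transcript and less of it per cell cannot be told apart. The log2 ratio to CAL27 was 3.68 (95% interval 3.35 to 4.13) in CAL27/5FU and 1.79 (1.41 to 2.26) in CAL27/OXA. The level in CAL27/OXA was 3.71-fold lower than in CAL27/5FU. The gene (ENSG00000136244.11) spans chromosome 7 from 22725884 to 22732002 on the plus strand (GRCh38), and the gene STEAP1B overlaps it on the opposite strand. The strandedness of the counting is not given in the sources used here. STEAP1B had 2, 14 and 1 counts in CAL27, CAL27/5FU and CAL27/OXA. The antisense gene AC073072.1, which is not in the count table, also overlaps IL6, so without the strand its reads cannot be told apart from those of IL6. For the 5 nearest tested genes on each side of IL6, the median log2 ratios were 0.046 and -0.037, with 2 and 3 of the 10 past 2-fold and ranges of -1.20 to 1.70 and -2.05 to 2.03.

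IL1A and IL1B encode interleukin-1α and interleukin-1β, which act on the same receptor. Both were higher in each resistant line than in CAL27. IL1A had 7656, 20777 and 31436 counts (197, 531 and 708 CPM). It was 2.70-fold higher in CAL27/5FU (log2 ratio 1.43, 1.40 to 1.47) and 3.60-fold higher in CAL27/OXA (1.85, 1.81 to 1.88). IL1B had 12917, 25799 and 26816 counts (332, 659 and 604 CPM), so its level in the resistant lines was similar and lay just under 2-fold above CAL27. Its log2 ratio was 0.99 (0.96 to 1.02) in CAL27/5FU, where it became 1.16 under scaling by total counts, and 0.86 (0.83 to 0.89) in CAL27/OXA. The ratio of IL1B to IL1A in FPKM was 3.30, 2.43 and 1.67. IL1A (ENSG00000115008.5) spans chromosome 2 from 112773915 to 112784590 and IL1B (ENSG00000125538.11) from 112829751 to 112836903, both on the minus strand. The 5 nearest tested genes outside the list on each side, which include other members of the interleukin-1 family, had median log2 ratios of -0.14 and 0.10. They lay on both sides of 0, from -4.41 to 1.45 in CAL27/5FU with 5 of the 10 past 2-fold, and from -4.50 to 0.99 in CAL27/OXA with 3 past 2-fold.

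The antagonists IL1RN and IL36RN were lower in each resistant line, while other members of their list differed. IL1RN, the receptor antagonist that blocks both interleukin-1 forms, had 804, 61 and 176 counts. It was 12.9-fold lower in CAL27/5FU (log2 ratio -3.69, -4.13 to -3.35) and 5.16-fold lower in CAL27/OXA (-2.37, -2.62 to -2.14). In FPKM, IL1B exceeded IL1RN by ratios of 19.8, 520 and 187. IL36RN, the antagonist of interleukin-36, had 81 counts in CAL27 and 2 in each resistant line, with log2 ratios of -4.41 (-8.42 to -3.45) and -4.50 (-8.60 to -3.63). IL1R2, a decoy receptor, went opposite ways: it had 84, 23 and 221 counts, and its log2 ratio was -1.79 in CAL27/5FU and 1.19 in CAL27/OXA. In the list of 7 antagonists and processing genes, all tested, 3 were lower and 1 higher in CAL27/5FU, and 2 were lower and 1 higher in CAL27/OXA. The higher gene in CAL27/5FU was IL37, with 5 and 17 counts. The median of the list was -0.72 and -0.64. CAPN1, a calpain protease and the most abundant gene of this list, had log2 ratios of -0.72 and -0.64, and CASP1, which cleaves pro-interleukin-1β, had -0.11 and 0.19, of which the first turned positive under scaling by total counts. Of the neighbouring agonists, IL36G was lower in each resistant line (-1.90 and -1.81), IL36A had 3, 4 and 21 counts, and IL36B had 0 counts in the 3 lines, which allows up to 3 in each.

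**Figure D4:**
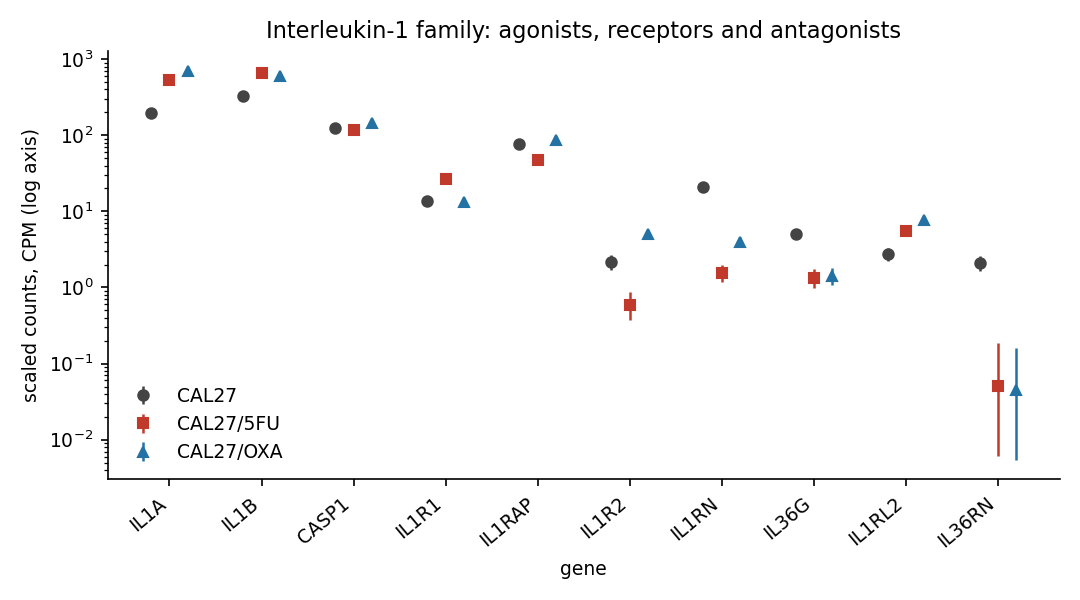
Scaled counts (CPM, log axis) of interleukin-1 and interleukin-36 family genes (x axis) in the 3 lines, with exact 95% Poisson intervals of the counts as bars. Points are to be compared within a gene, since CPM is not scaled to gene length. IL1A and IL1B are lowest in CAL27, whereas IL1RN, IL36G and IL36RN are highest there.

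The neutrophil chemokines CXCL1, CXCL2, CXCL3 and CXCL8, which signal through CXCR2 and, for CXCL8, also CXCR1, lie within one cluster on chromosome 4 (73740506 to 74099293). They did not move together. CXCL1 (ENSG00000163739.4) had 6554, 7659 and 3274 counts (168, 196 and 73.7 CPM). It was highest in CAL27/5FU by a small margin and clearly lowest in CAL27/OXA, with log2 ratios to CAL27 of 0.22 (0.17 to 0.27) and -1.19 (-1.25 to -1.13). CXCL2 (ENSG00000081041.8) had 784, 1260 and 2004 counts (20.1, 32.2 and 45.1 CPM). It was lowest in CAL27 and highest in CAL27/OXA, with log2 ratios of 0.68 (0.55 to 0.81) and 1.16 (1.04 to 1.29). CXCL3 (ENSG00000163734.4) had 246, 596 and 265 counts (6.32, 15.2 and 5.97 CPM). Its log2 ratio was 1.26 (1.05 to 1.49) in CAL27/5FU and -0.08 (-0.34 to 0.17) in CAL27/OXA, the latter turning to 0.05 under scaling by total counts. CXCL8 (ENSG00000169429.10) had 7624, 7000 and 6095 counts (196, 179 and 137 CPM). CAL27/OXA was the lowest line, within 2-fold of CAL27. The log2 ratios were -0.13 (-0.18 to -0.08), which became 0.04 under scaling by total counts, and -0.51 (-0.56 to -0.46). Of the 11540 genes averaging 100 counts or more, the pair of log2 ratios nearest to that of CXCL8 was found for CEBPB, which encodes a transcription factor of inflammatory genes, with -0.14 and -0.52. TATDN1, ABHD16A, SCPEP1 and QSOX1 followed, and 112 genes lay within a distance of 0.1, measured over the 2 ratios, which share the CAL27 library.

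Within each library, the mix of these chemokines shifted. CXCL1 exceeded CXCL2 in FPKM by ratios of 8.62, 6.27 and 1.68, and CXCL1 exceeded CXCL3 by 26.4, 12.7 and 12.2. CXCL8 was below CXCL1 in CAL27 (a ratio of 0.798) and in CAL27/5FU (0.627) and above it in CAL27/OXA (1.28). CXCL1, CXCL2 and CXCL3 are near copies of each other, so reads may be split between them by the counting. Of the 50-base words in the longest coding transcript, 5.73% for CXCL1, 9.24% for CXCL2 and 5.26% for CXCL3 also occurred in a transcript of another gene, in each case another gene of this trio. No word of CXCL8 or of the other 6 genes was shared. The remaining chemokines of the cluster were near 0: CXCL5 had 0, 15 and 0 counts, which places CAL27/5FU at least 4.98-fold higher than the floor of 3 counts in CAL27. CXCL6 had 1, 0 and 0 counts, PF4 had 4, 2 and 7, and PPBP had 0 in each line. The 5 nearest tested genes outside the list on each side had median log2 ratios of 0.68 and 0.62, with 3 of the 10 past 2-fold in each. They include the EGFR ligand genes EREG (log2 ratios 2.46 and 1.65) and AREG (0.93 and 2.35). The part of the region in the ratios of the chemokines was not tested.

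CCL20, the ligand of CCR6, which attracts lymphocytes and dendritic cells, had 3519, 2795 and 4464 counts (90.3, 71.4 and 100.5 CPM). CAL27/5FU was the lowest line and CAL27/OXA the highest, with log2 ratios of -0.34 (-0.41 to -0.27) and 0.15 (0.09 to 0.22). The gene (ENSG00000115009.12) spans chromosome 2 from 227805739 to 227817564 on the plus strand. TNFAIP3, the feedback inhibitor, had 27550, 21271 and 24532 counts (707, 543 and 552 CPM). CAL27 was the highest line and the resistant lines lay close together, with log2 ratios of -0.38 (-0.41 to -0.35) and -0.36 (-0.38 to -0.33). The gene (ENSG00000118503.14) spans chromosome 6 from 137867188 to 137883312 on the plus strand. ICAM1, the ligand of leukocyte β2 integrins, had 13831, 20758 and 23034 counts (355, 530 and 519 CPM). CAL27 was the lowest line and the resistant lines were again close together, with log2 ratios of 0.58 (0.55 to 0.61) and 0.55 (0.52 to 0.58). The gene (ENSG00000090339.8) spans chromosome 19 from 10270835 to 10286615 on the plus strand. CCL20, TNFAIP3 and ICAM1 stayed within 2-fold in both comparisons with CAL27. Antisense genes overlap TNFAIP3 and ICAM1 in GENCODE 29 and are not in the count table, so without the strand their reads cannot be told apart from those of the named gene.

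Counts were low for several receptors of the products. CXCR1 and the decoy ACKR1 had 0 counts in the 3 lines, which allows up to 3 in each, CCR6 had 2, 4 and 4, and CXCR2 had 79, 124 and 81. IL6R, the ligand-binding IL6 receptor, had 4218, 2763 and 4918 counts, with log2 ratios of -0.62 and 0.03, and IL6ST, which encodes gp130, had 6236, 8826 and 10390, with 0.49 and 0.55. Of the 8 receptors of the list, 4 were tested. ITGB2, the β2 integrin chain, was higher in CAL27/5FU (102 and 497 counts, log2 ratio 2.26) and lower in CAL27/OXA (33 counts, -1.75). The median of the tested receptors was 0.56 and -0.06, and the latter was positive under scaling by total counts. The list of STAT3 and IL6 response held 8 genes, among them receptors and kinases of the pathway and STAT3. In each resistant line 1 of the 8 was past 2-fold, the feedback inhibitor SOCS3. It was higher, with log2 ratios of 1.37 (1.27 to 1.47) and 1.13 (1.03 to 1.22). STAT3 itself, the most abundant gene of that list after OSMR, had -0.06 and -0.46, and the median of the list was 0.19 and -0.10. The STAT3 ratio in CAL27/5FU and the median in CAL27/OXA changed sign under scaling by total counts.

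The NF-κB machinery was compared with its targets, by lists of genes in each role. Of the 5 subunits, 0 were past 2-fold in any comparison. RELA had log2 ratios of -0.27 in CAL27/5FU and -0.17 in CAL27/OXA, RELB 0.28 and 0.39, REL 0.35 and -0.05, NFKB1 -0.07 and -0.02, and NFKB2 -0.24 and 0.18, where the ratios of NFKB1 and the second of REL turned positive under scaling by total counts. Their median was -0.07 and -0.02. Of the 6 IκB proteins, 0 were past 2-fold in CAL27/5FU and 1, BCL3, was lower in CAL27/OXA (-1.13, but -0.998 under scaling by total counts), with medians of -0.04 and 0.08. NFKBIA, the most abundant of them, had 15426, 13669 and 14417 counts and ratios of -0.18 and -0.29. Of the 9 genes of the IKK complex and its partners, 0 were past 2-fold in either comparison with CAL27, with medians of -0.01 and 0.07. The medians of the subunits, the IκB proteins and the IKK genes in CAL27/5FU, and of the subunits in CAL27/OXA, were positive under scaling by total counts.

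Of 17 adaptors and ubiquitin ligases, 1 was lower in CAL27/5FU and 2 were lower in CAL27/OXA, and the medians were 0.07 and 0.05. Under scaling by total counts, 1 was higher and 1 lower in CAL27/OXA. CARD14, a scaffold of NF-κB signalling in keratinocytes, had 2564, 432 and 271 counts, with log2 ratios of -2.57 (-2.73 to -2.43) and -3.42 (-3.62 to -3.25). BIRC3, a ubiquitin ligase and NF-κB target, had 8495, 13004 and 4622 counts, with 0.61 and -1.07, the latter -0.93 under scaling by total counts. The most abundant gene of this list, IRAK1, had 0.15 and 0.05. The list of negative feedback regulators held 11 genes, not all of them established inhibitors. Of these, 0 were past 2-fold in CAL27/5FU and 2 were lower in CAL27/OXA (IRAK3 at -1.07 and TRAFD1 at -1.004). Both lay within 2-fold under scaling by total counts, and the medians of the list were 0.01 and -0.02. CYLD, a deubiquitinase, had -0.85 and 0.54, and TNIP1, the most abundant gene of that list, had -0.21 and -0.02.

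Of 13 upstream ligands, 9 were tested. In CAL27/5FU 1 was higher and 1 lower, in CAL27/OXA 1 was higher and 4 were lower, and the medians were -0.15 and -0.50. TNF had 925, 1044 and 1286 counts, with log2 ratios of 0.17 and 0.29. TSLP, an epithelial alarm cytokine, was the higher gene in each line, with 49, 205 and 363 counts and ratios of 2.02 and 2.65. TNFSF10, which encodes the death ligand TRAIL and was the most abundant of the list in CAL27, had -0.30 and -2.05, and IL17C had 0.22 and -4.09. Of 15 upstream receptors, 3 were higher and 1 lower in CAL27/5FU, and 2 were higher and 2 lower in CAL27/OXA, with medians of 0.15 and -0.17, and under scaling by total counts IL1R1 was also higher in CAL27/5FU. TLR4, the lipopolysaccharide receptor, had 39, 267 and 342 counts, with ratios of 2.71 (2.28 to 3.29) and 2.88 (2.46 to 3.46), while the flagellin receptor TLR5 had 83, 22 and 11 counts, with -1.83 and -2.88. The signalling receptor IL1R1 had 532, 1040 and 592 counts, with 0.96 and -0.04, which became 1.13 and 0.10 under scaling by total counts.

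**Figure D5:**
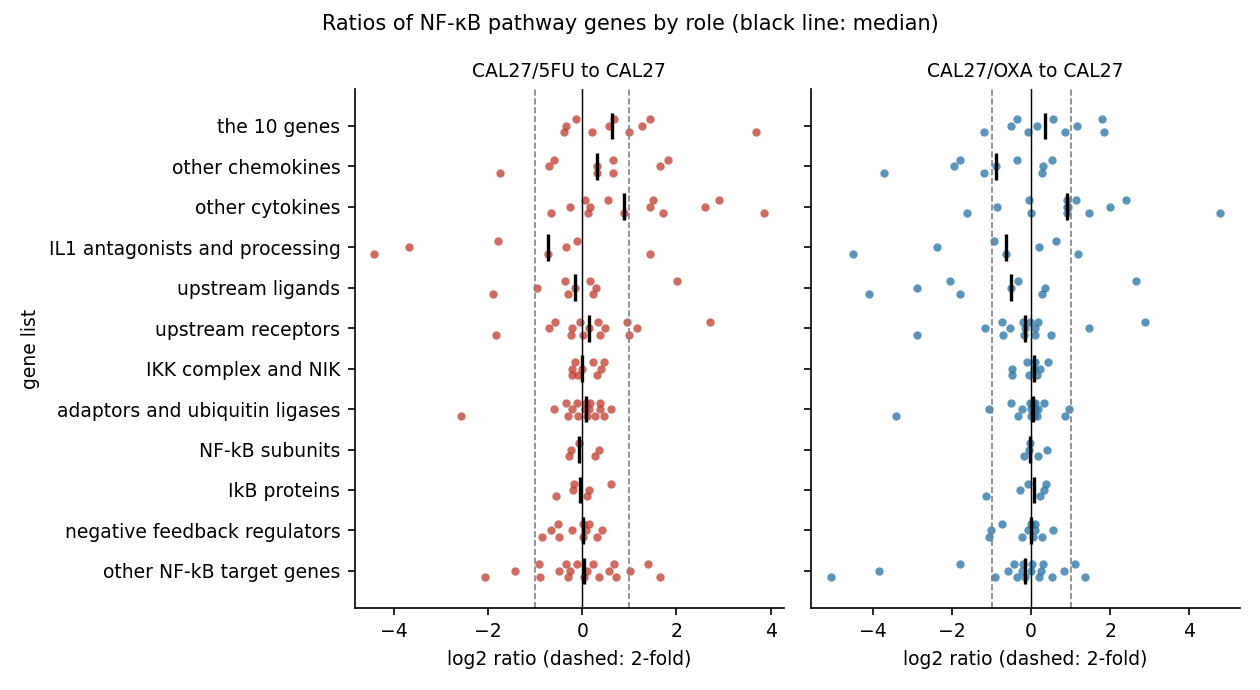
Log2 ratio to CAL27 (x axes) of each tested gene of 12 lists (y axis) in CAL27/5FU and CAL27/OXA, with the median of each list as a black line and dashed lines at 2-fold. The points of the subunits and of the IKK list all lie within 2-fold of CAL27, while other cytokines reach 3.86 and 4.78.

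Of 13 genes tested in the list of other cytokines, which includes the receptor IL4R, 6 were more than 2-fold higher and 0 lower in CAL27/5FU, and 5 were higher and 1 lower in CAL27/OXA, with medians of 0.89 and 0.91. Under scaling by total counts, 7 were higher in CAL27/5FU, and 9 were higher and 1 lower in CAL27/OXA. The higher genes in CAL27/5FU were IL24, EBI3, CSF2, LIF, CSF3 and IL11. IL24 had 13, 216 and 464 counts, with log2 ratios of 3.86 (3.24 to 4.98) and 4.78 (4.18 to 5.89). CSF2, which encodes the myeloid growth factor GM-CSF, had 389, 2405 and 1756 counts, with 2.62 (2.47 to 2.78) and 1.98 (1.83 to 2.15). LIF, a cytokine of the IL6 family, had 1077, 3569 and 2704 counts, with 1.72 and 1.14. IL11, of the same family, had 20, 58 and 129 counts, with 1.44 and 2.39. CSF3 (G-CSF) had 148, 424 and 322 counts, with 0.92 in CAL27/OXA, which became 1.05 under scaling by total counts, and EBI3 had 2.90 and 1.47. CSF1 was the gene that was lower in CAL27/OXA, with 0.11 and -1.61. IL32, the most abundant in CAL27, had 0.89 and 0.91, which became 1.06 and 1.04 under scaling by total counts.

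Of 21 other chemokines, 9 were tested. In CAL27/5FU 2 were higher (CXCL11 and CCL5) and 1 was lower (CCL2), and in CAL27/OXA 0 were higher and 4 were lower, with medians of 0.32 and -0.90. CCL2, the monocyte chemokine and the most abundant of the list in CAL27, had 7173, 2156 and 621 counts. It was 3.34-fold lower in CAL27/5FU and 13.1-fold lower in CAL27/OXA, with log2 ratios of -1.74 (-1.81 to -1.67) and -3.71 (-3.84 to -3.60). The interferon-induced chemokine CXCL11 had 612, 2171 and 374 counts, with 1.82 and -0.90. CXCL10 had 723, 1149 and 236 counts, with 0.66 and -1.80, and CCL5 had 71, 227 and 34 counts, with 1.64 and -1.20. These 3 were highest in CAL27/5FU and lowest in CAL27/OXA.

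Markers of cell types were read to check what the libraries held. All 9 squamous and epithelial markers were detected in each line, with summed levels of 15389, 3806 and 5223 CPM. KRT5, the most abundant of them per length in CAL27, had 7345, 1177 and 1637 CPM. KRT14 had log2 ratios of -5.94 and -2.98. CDH1 (-0.14 and -0.16) and EPCAM (0.39 and 0.03) stayed within 2-fold in both resistant lines. TP63 (0.13) and SFN (0.08) did so in CAL27/OXA only. The CDH1 ratio in CAL27/5FU turned positive under scaling by total counts. Of the 9, 7 were lower in CAL27/5FU and 5 in CAL27/OXA, with medians of -1.28 and -1.18, and under scaling by total counts the 7 became 5. The part of this shift in the cytokine ratios was not tested. The leukocyte marker PTPRC (CD45) had 2, 0 and 0 counts, and MS4A1 had 0 in each line. Of the 10 leukocyte markers, 5, 3 and 5 were at or under 3 counts in the respective lines. Their summed level was 106, 85.5 and 127 CPM, mostly from CD68, a lysosomal gene with 3143, 1827 and 5055 counts. CD14, a coreceptor of TLR4, had 637, 1290 and 341 counts, with log2 ratios of 1.01 and -1.09, the latter -0.95 under scaling by total counts. It was highest in CAL27/5FU and lowest in CAL27/OXA, the order also seen for ITGB2, CCL5, CXCL10 and CXCL11. Other genes of the lists, among them CXCL1, BIRC3, TNFAIP2, CSF1 and CFB, had this order too. Of the 4 leukocyte markers tested, 1 was higher and 1 lower in CAL27/5FU, and 0 were higher and 1 lower in CAL27/OXA, with medians of -0.60 and -0.68. The 5 endothelial markers summed to 2.62, 9.56 and 5.40 CPM, with PECAM1 at 13, 6 and 11 counts and CDH5 at 43, 338 and 163. The 7 fibroblast markers summed to 41.9, 47.2 and 50.1 CPM, with COL1A1 the most abundant per length in CAL27 and COL3A1 at 0 counts in each line. COL1A1 had log2 ratios of -0.38 and -0.59. Of the 4 fibroblast markers tested, 2 were more than 2-fold higher in each resistant line, LUM (1.76 and 2.66) and COL1A2 (1.71 and 1.03), and the medians were 1.16 and 0.96. Under scaling by total counts, 3 were higher in CAL27/OXA. Of the 4 endothelial markers tested, 2 were higher and 1 lower in CAL27/5FU, and 2 were higher and 0 lower in CAL27/OXA, with medians of 0.21 and 0.66, and under scaling by total counts 0 were lower in CAL27/5FU. The part of these markers in the cytokine ratios was not tested.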

How the data were processed

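Total RNA of the 3 lines was sequenced, and 1 labelled library per line was used. The submitters' processing notes name CASAVA 1.8, HISAT2 2.0.5 and GRCh38. The read counter, its annotation and its use of strand are not given in the sources used here. The deposited raw counts per gene were used for ratios and the deposited FPKM values for levels between genes. Each table also holds 3 sample columns with the same line names but ending in -2, which match no label used here. Whether they are second libraries of these lines was not determined, and they were not used. Groups came from the sample labels. Genes averaging 10 counts or more were tested (13676 genes). Log2 ratios are of CPM scaled by TMM factors (edgeR 4.0.16, R 4.3.3) with a prior count of 2. Intervals are exact 95% binomial (Clopper-Pearson) or Poisson intervals and cover counting error only. A gene was called past 2-fold, and 3 counts is the floor. The ratio step was tested on simulated data. All 10 genes and the lists were chosen with earlier results of these data known. The rule for named genes took all 10 genes, the NF-κB subunits, the chemokine and interleukin-1 cluster genes, the cell type markers, the 5 genes nearest to CXCL8 and, from each other list, the most abundant gene and at most 5 past 2-fold with the largest ratios. Not all genes taken by this rule are described in the text, and CX3CL1, KRT6A and FOSL2 are among those left out. ACKR1, AREG, BCL2L1, CASP1, CCR6, CSF3, CXCR1, CXCR2, EREG, IL1R1, IL6ST, LCN2, LIF, PTGS2, SOD2, STAT3, STEAP1B, TNF and VCAM1 fall outside this rule and were named after their values were seen, as were AC073072.1 and the genes named only for opposite signs in the resistant lines. The GGAATTTCC letters were also added later, for the site known from CXCL8. Gene positions are from GENCODE 29 and promoters from RefSeq (GRCh38.p14). Alternatives were scaling by DESeq2 1.42.0 size factors, total counts, upper quartiles or TMM over 2 libraries, prior counts of 0.5 and 5, other filters on low counts, FPKM with pseudocounts of 0.1 and 1, a 4-fold threshold, and the whole interval past 2-fold.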

Additional observations from a re-analysis of the deposited data

Results flagged for a closer look

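Of 193 tested genes of the lists, 35 had opposite signs in the 2 resistant lines, with both counting intervals away from 0 (18.1%). Of all 13676 tested genes, 1610 did (11.8%), and genes with more counts have narrower intervals. The difference was not tested, because each line has 1 labelled library. For 5 of the 35 (BIRC2, ZC3H12A, CASP1, JAK1 and KHSRP) a ratio to CAL27 changed sign under another scaling, and for 30 none did. The value given for each gene is the log2 ratio of CAL27/OXA to CAL27/5FU.

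Among the 10 genes, CXCL1 had -1.41 and CCL20 had 0.49. In the signalling lists, NFKB2 had 0.42, TAB1 0.33, TRAF2 0.76, BIRC2 0.25, BIRC3 -1.67, MYD88 -0.62, TRADD 0.31 and BCL10 0.61. In the feedback list, CYLD, TNFAIP2 and ZC3H12A had 1.40, -1.15 and -0.24. Of receptors and interleukin-1 genes, TNFRSF21 had -1.67, IL1RAP 0.87, IL1R2 2.98 and CASP1 0.30. Among chemokines and cytokines, CXCL11 had -2.71, CXCL10 -2.46, CCL5 -2.84 and CSF1 -1.72. ITGB2, the β2 integrin chain that pairs to bind ICAM1, had the largest difference of the 35, -4.01. The adhesion molecule ALCAM had 0.81, the complement factor CFB -2.04, LCN2 -1.23 and CD83 0.83. In the STAT3 list, JAK1 had -0.31 and the oncostatin M receptor OSMR -0.41. The RNA-binding proteins ZFP36L2, KHSRP and HNRNPD had 0.89, 0.39 and 0.35. Of the cell type markers, TP63 had 1.41, SFN 1.16, CD68 1.28 and CD14 -2.10.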

How the results depend on the processing

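No paired analysis was possible because each line has 1 labelled library. The median log2 ratio of the 10 genes in CAL27/5FU, 0.63, became 0.80 by total counts, 0.78 in FPKM with a pseudocount of 1 and 0.80 with 0.1. In CAL27/OXA it was 0.35 and became 0.48 under each of these. At 4-fold, 1 of the 10 genes was higher in CAL27/5FU, 0 were higher and 0 lower in CAL27/OXA, and 0 were lower in CAL27/OXA against CAL27/5FU. The share of all tested genes past 4-fold is not given here, so these counts cannot be set against it. Of 240 values of single genes under other scalings, prior counts or FPKM, 175 stayed within their counting interval, 65 moved beyond it and 0 of those past 2-fold changed sign. Outside the 10 genes, some genes called past 2-fold fell within it under at least 1 alternative. Among others, TLR4 fell to 0.96 and IL1R2 to -0.78 in CAL27/5FU. In CAL27/OXA, IL1R2 fell to 0.94 and ITGB2 to -0.54. IL36RN fell to -0.76 in each line, TLR5 to -0.36 and -0.47, and IL11 to 0.47 and 0.92. Over all genes, the reported settings gave 1157 higher and 919 lower in CAL27/5FU, 894 and 1269 in CAL27/OXA, and 571 and 1146 in CAL27/OXA against CAL27/5FU. Against these, FPKM with a pseudocount of 1 gave 503 higher and 311 lower in CAL27/5FU and 368 and 481 in CAL27/OXA, and 165 and 437 in CAL27/OXA against CAL27/5FU. The share of higher calls in CAL27/5FU was 55.7% as reported and 65.6% in FPKM with a pseudocount of 0.1. Counting all genes with at least 1 count gave 1899 and 1555 in CAL27/5FU, and 1348 and 1925 in CAL27/OXA, and 981 and 1861 in the direct comparison. A minimum mean of 50 counts left 12206 genes. It gave 760 higher and 655 lower in CAL27/5FU, 608 and 951 in CAL27/OXA, and 369 and 794 in the direct comparison. With 1 labelled library per line, and the columns ending in -2 not used, no replicate could be left out, and counting intervals do not hold the spread between cultures.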

Other observations

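Other NF-κB target genes moved in both directions. Of 19 tested, 3 were higher and 2 lower in CAL27/5FU, and 2 were higher and 3 lower in CAL27/OXA, with median log2 ratios of 0.05 and -0.15. S100A8 and S100A9, the subunits of calprotectin, were lower in each resistant line. S100A8 had 12401, 2974 and 420 counts in the parental, 5FU and OXA lines, with log2 ratios of -2.07 and -5.07. S100A9, the most abundant of the list per length in CAL27, had 62285, 23448 and 4980 counts, with -1.42 and -3.83. LCN2, an iron-sequestering protein, had 9878, 20132 and 9718 counts, with 1.02 and -0.21. SOD2, the mitochondrial superoxide dismutase, had 114720, 90941 and 97252 counts, with -0.34 and -0.43. The antiapoptotic gene BCL2A1 had 1.65 and 0.83, and PTX3 had 1.40 and 0.26. The genes higher in CAL27/OXA were BCL2L1, with 0.58 and 1.36, and PTGS2, with 0.71 and 1.11. PTGS2 fell to 0.97 there under an alternative.

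Among 12 AP-1 and C/EBP factors, 1 was higher and 2 lower in CAL27/5FU, and 3 were higher and 3 lower in CAL27/OXA, with medians of -0.35 and -0.52. With total counts as the scale, 2 were higher and 1 lower in CAL27/5FU, where EGR1 became 1.11 and FOS -0.87. FOSL1, an AP-1 subunit, had 2805, 8377 and 21063 counts, with log2 ratios of 1.57 and 2.72. CEBPA had 359, 140 and 27 counts, with -1.35 and -3.82. Of 8 tested adhesion molecules, 2 were higher and 1 lower in CAL27/5FU, and 2 were higher and 0 lower in CAL27/OXA, with medians of -0.24 and 0.22. The higher genes were ICAM2 (1.67 and 1.43) and CEACAM1 (1.71 and 1.21), while VCAM1 had 2, 3 and 0 counts. Of 10 genes of AU-rich mRNA decay and stability, 0 were past 2-fold in any comparison. The medians were -0.04 and 0.09, the first of which turned positive when total counts set the scale.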
